A study of Arabidopsis thaliana with 12 samples.

Results

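The 9 genes described here are sugar-starvation and dark-induced genes of Arabidopsis thaliana. They were taken as a list of 9 locus identifiers, chosen with earlier results of these data known, out of 33597 named genes counted in the study. They are SEN1 (also DIN1), DIN2, DIN4, ASN1 (also DIN6), DIN10, BCAT2, MCCA, MCCB and IVD, and all 9 passed the filter on low counts. Poly(A) RNA came from rosette leaves, the third and the fourth, in 12 libraries that form 4 groups of 3. The groups were leaves of an ERF34 overexpressor in NaCl (OX NaCl), overexpressor leaves without salt (OX mock), wild-type Col leaves in NaCl (Col NaCl) and Col leaves without salt (Col mock). The overexpressor was transgenic line #1 in the Col background, the single line sequenced, and it carried the ERF34 coding sequence with GFP at its N-terminus behind the CsVMV promoter. Plants of all groups grew at 22 °C in a 16 h day and an 8 h night. Salt leaves were detached at 16 DAE, an abbreviation not spelled out in the labels, and left to float on 3 mM MES (pH 5.8) holding 100 mM NaCl for 1 day at the same temperature and day length. The mock samples carry that same protocol text, NaCl included, with no wording of their own. The age of mock leaves, and whether they were detached and floated too, are therefore not stated, and NaCl and those handling steps cannot be told apart in any comparison of NaCl with mock. The title of the series asks how the AP2/ERF transcription factor ERF34 bears on leaf senescence under salt.

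When a plant runs short of sugar, as in prolonged darkness, the kinase SnRK1 and transcription factors of the bZIP family are known to switch on genes that free carbon from other sources. The DIN (dark-inducible) genes were found that way, and several of them are repressed by supplied sugar. Leucine, isoleucine and valine are among the substrates burnt in such conditions. Leucine is broken down in mitochondria by an aminotransferase, a keto acid dehydrogenase, isovaleryl-CoA dehydrogenase and methylcrotonyl-CoA carboxylase in turn, and 5 of the 9 genes encode enzymes of this route or close relatives of them.

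**Figure D1:**
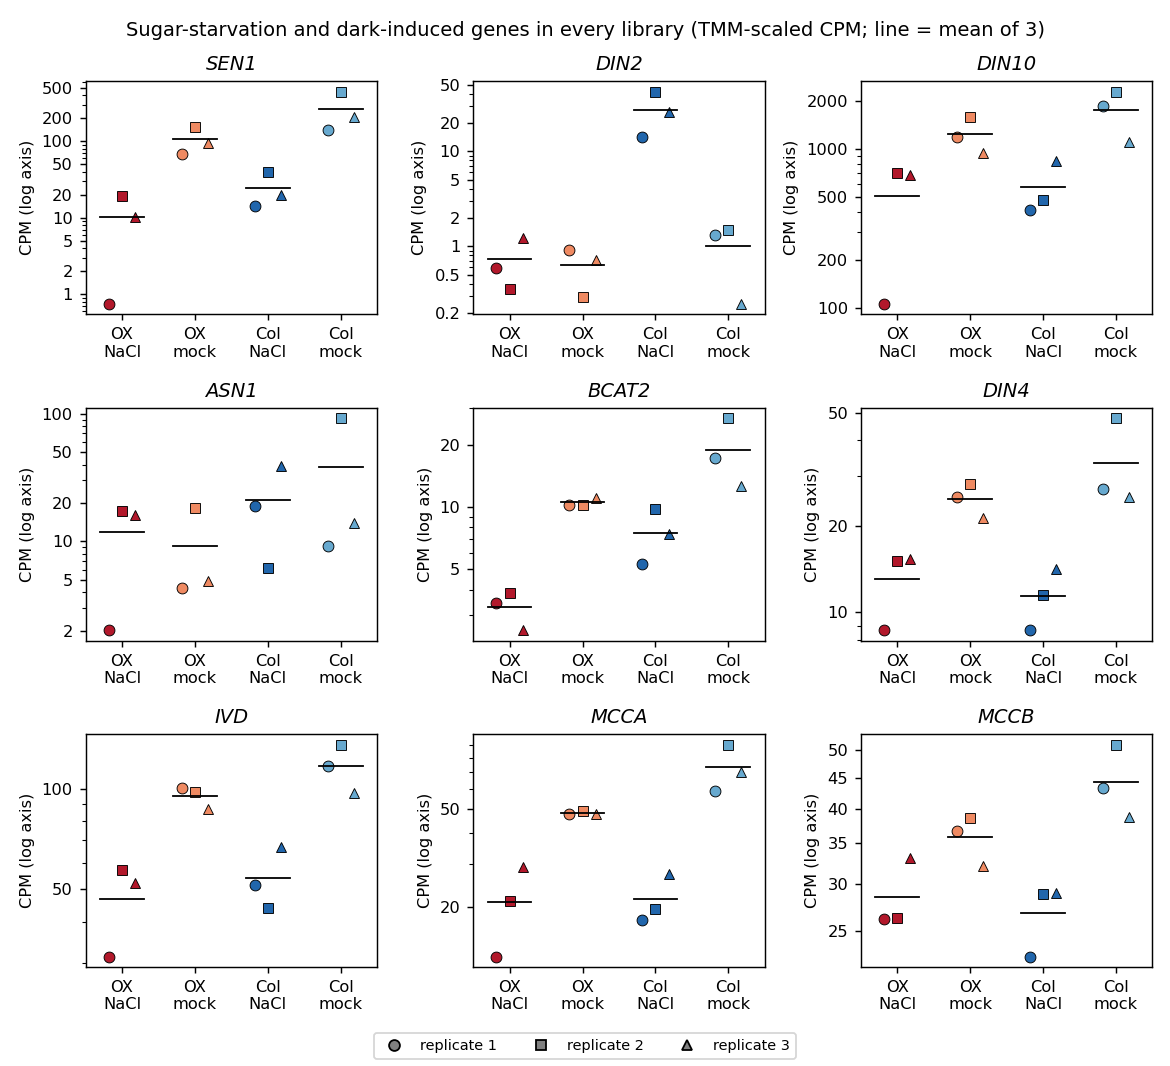
Level of each of the 9 genes in every library, in CPM (counts scaled to the TMM-adjusted library total) on a log axis, with the groups OX NaCl, OX mock, Col NaCl and Col mock from left to right. Marker shapes give the replicate number and the line is the mean of 3; DIN2 stands above 10 CPM in the 3 Col NaCl libraries and below 2 CPM in the other 9 libraries.

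ERF34 (AT2G44940), the gene carried by the transgene, was measured, in counts scaled to the TMM-adjusted library total (CPM), at 768 to 1028 CPM in OX NaCl and 998 to 1081 CPM in OX mock, against 5.94 to 16.7 CPM in Col NaCl and 2.96 to 13.9 CPM in Col mock, so every library matched its genotype label. Total counts were 10425430 to 12704898 in the 6 overexpressor libraries and 14301312 to 18398594 in the 6 Col libraries, and every overexpressor library was shallower than every Col one. The summed level of 4 mesophyll markers was 12675 to 14505 CPM in OX NaCl, 14374 to 15508 CPM in OX mock, 9884 to 11752 CPM in Col NaCl and 14343 to 15507 CPM in Col mock. Of 3 root markers, 2 had 0 counts in every library, and the summed level of 3 flower markers reached at most 3.25 CPM. In 18886 tested genes, NaCl against mock called 3449 in the overexpressor and 7814 in Col at an adjusted p under 0.05 (edgeR quasi-likelihood test, Benjamini-Hochberg adjustment over all tested genes). The overexpressor against Col called 829 genes in NaCl and 19 in mock, and the interaction of genotype with NaCl called 0 genes by edgeR (2580 at an unadjusted p under 0.05; 659 by DESeq2 and 64 by limma).

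The stretches of DNA just upstream of DIN2 and ASN1 are shown because DIN2 was the single member that rose with NaCl and ASN1 the single member whose level with NaCl in Col was not called in either direction. Each is the 300 bases before the gene's start in the RefSeq annotation of TAIR10.1, written 5′ to 3′ on the gene's own strand. The submitters' processing notes name the TAIR10 genome, and genes were matched to TAIR10.1 by locus identifier. The DIN2 window (chr3:22216240-22216539, plus strand) overlaps no other annotated gene. The ASN1 window (chr3:17441432-17441731, minus strand) overlaps the small coding gene AT3G47341 on the opposite strand, which had 0 counts in all 12 libraries. Capitals mark the motifs found.
DIN2: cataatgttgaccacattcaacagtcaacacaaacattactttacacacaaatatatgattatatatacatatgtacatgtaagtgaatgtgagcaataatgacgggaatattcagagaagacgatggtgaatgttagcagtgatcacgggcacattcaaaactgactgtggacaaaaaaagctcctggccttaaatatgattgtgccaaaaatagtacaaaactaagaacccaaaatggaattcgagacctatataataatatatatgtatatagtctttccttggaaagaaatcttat
ASN1: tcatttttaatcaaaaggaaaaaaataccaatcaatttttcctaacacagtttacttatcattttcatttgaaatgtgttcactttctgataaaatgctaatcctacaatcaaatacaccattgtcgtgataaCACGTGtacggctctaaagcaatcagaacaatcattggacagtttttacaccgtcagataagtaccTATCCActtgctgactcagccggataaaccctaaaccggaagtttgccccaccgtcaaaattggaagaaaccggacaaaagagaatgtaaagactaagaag

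Both strands of the same window were searched in all 9 genes for CACGTG (the G-box), GACGTC (the C-box), ACTCAT and TATCCA, letters that bZIP factors or sugar-responsive promoters are known for, none of which contains another. CACGTG was in 1 of 9 windows, that of ASN1 at -167 to -162 from the gene start, against 7.09% of 27437 such windows of all genes. TATCCA was in 1 of 9, again ASN1, at -101 to -96, against 16.2% of all windows. ACTCAT was in 0 of 9 against 14.8%, and GACGTC in 0 of 9 against 2.61%. A match is a run of letters only and was not tested for binding.

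Per kilobase of annotated exon, the 9 genes spanned a wide range of levels. In Col mock the order ran from DIN10 (563 CPM per kb) through SEN1 (203) and IVD (71.4) to MCCA (26.7), DIN4 (24.5), MCCB (20.3), ASN1 (14.0), BCAT2 (10.8) and DIN2 (0.435). The ranges of neighbouring genes overlapped from MCCA down to BCAT2, so the order of those 5 genes is not fixed beyond their spread. DIN10 had the highest mean in all 4 groups, although its range met that of IVD in OX NaCl, and DIN2 the lowest in OX NaCl, OX mock and Col mock. In Col NaCl, DIN2 stood in the fifth place at 11.7 CPM per kb, with a range that overlapped those of its neighbours, and BCAT2 was the lowest at 4.29.

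With NaCl, most of these genes were lower than in mock leaves, and DIN2 rose in Col. In the overexpressor, SEN1, BCAT2, IVD and MCCA fell, 4 of 9 beside 8.55% of all tested genes called lower, and 0 rose beside 9.72%. In Col, SEN1, DIN4, DIN10, BCAT2, IVD, MCCA and MCCB fell, 7 of 9 beside 21.1% of all tested genes called lower, and DIN2 rose, 1 of 9 beside 20.3%. The median log2 fold change of the 9 was -1.02 in the overexpressor, against 0.02 over all tested genes, and -1.33 in Col, against -0.01. Because the 9 were chosen with earlier results of these data known, these shares and medians describe them and do not test them as a set. In bulk leaf RNA, fewer cells of a type and less RNA per cell cannot be told apart. Markers of leaf cell types were measured as well. The summed level of 5 guard cell and epidermis markers was 82.2 to 88.8 CPM in OX NaCl, 98.5 to 124 CPM in OX mock, 58.9 to 67.6 CPM in Col NaCl and 77.0 to 129 CPM in Col mock. The sum of 4 vascular markers was 459 to 563 CPM in OX NaCl, 638 to 697 CPM in OX mock, 503 to 556 CPM in Col NaCl and 634 to 792 CPM in Col mock. Of the leaf markers tested, 1 of 4 for mesophyll and 0 of the others fell with NaCl in the overexpressor, beside 8.55% of all tested genes. In Col, 1 of 4 for mesophyll, 2 of 4 for guard cell and epidermis and 2 of 4 for vascular tissue fell, beside 21.1%. The part of these markers in the changes of the 9 genes was not tested.

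Every library of the NaCl group lay below every mock library for 6 of the 9 genes in the overexpressor (18.3% of all tested genes) and for 7 in Col (26.7%). The Col set was the 7 called genes, and the overexpressor set was SEN1, DIN10, BCAT2, DIN4, IVD and MCCA. Libraries of the same replicate number correlated in both comparisons. The labels do not say whether that number marks a shared day or batch. With the number as a block the overexpressor count of all called genes was 5327 in place of 3449, and DIN4 was called there (adjusted p = 0.0189, in place of 0.0518).

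**Figure D2:**
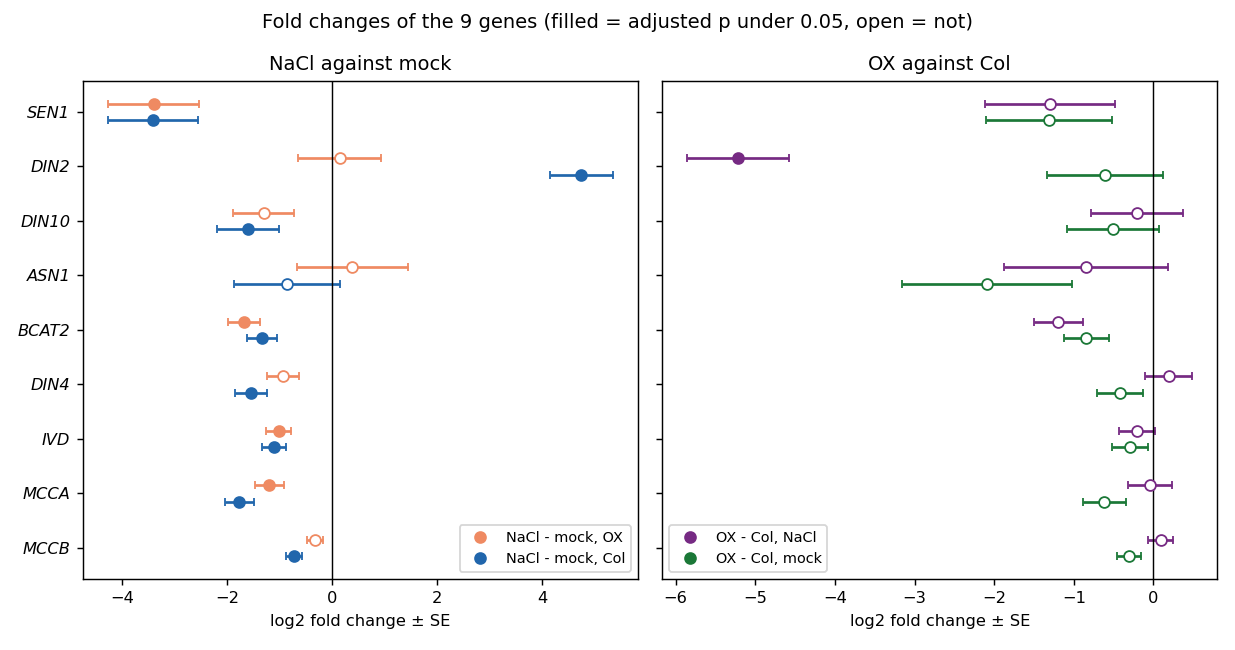
Log2 fold change ± SE (edgeR) of each of the 9 genes, for NaCl against mock in the overexpressor and in Col on the left, and for the overexpressor against Col in NaCl and in mock on the right. Filled points had an adjusted p under 0.05; DIN2 stands at 4.75 for NaCl in Col and at -5.21 for the overexpressor against Col in NaCl.

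SEN1 (AT4G35770; chr4:16944878-16946266, plus strand, 2 exons) encodes a rhodanese-family protein and is a marker of darkened and senescing leaves. It was at 0.747, 19.4 and 10.3 CPM in OX NaCl and 68.9, 154 and 95.4 CPM in OX mock, listed by replicate 1, 2 and 3. It was at 14.1, 40.1 and 20.1 CPM in Col NaCl and 139, 445 and 206 CPM in Col mock. The salt libraries were all below the mock libraries of their genotype, and replicate 2 was the highest of each group. SEN1 fell 10.5-fold in the overexpressor (log2 -3.39, SE 0.867, adjusted p = 0.0238) and 10.6-fold in Col (log2 -3.41, SE 0.854, adjusted p = 0.00924), the largest falls among the 9 in both genotypes. The overexpressor call was lost without OX mock replicate 2 (adjusted p = 0.0527) or 3 (0.0557), without OX NaCl replicate 3 (0.0660), and with only the overexpressor libraries fitted (0.0535).

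DIN2 (AT3G60140; chr3:22216540-22220824, plus strand, 11 exons) encodes a β-glucosidase. It had 0.597, 0.352 and 1.23 CPM in OX NaCl and 0.919, 0.293 and 0.709 CPM in OX mock, from 8, 4 and 15 counts in OX NaCl and 12, 3 and 9 counts in OX mock. It had 14.2, 42.3 and 25.6 CPM in Col NaCl and 1.32, 1.48 and 0.248 CPM in Col mock, from 208, 720 and 457 counts in Col NaCl and 20, 23 and 4 counts in Col mock. The Col NaCl libraries stood above all other libraries, and the other 3 groups overlapped. DIN2 rose 26.9-fold with NaCl in Col (log2 4.75, SE 0.603, adjusted p = 0.000224). In the overexpressor the log2 fold change was 0.15 (SE 0.787, adjusted p = 0.916), with an approximate 95% interval of -1.67 to 1.96, and it was negative without OX mock replicate 2 (-0.16) or OX NaCl replicate 3 (-0.44).

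DIN10 (AT5G20250; chr5:6833564-6836862, plus strand, 3 exons) encodes a protein of the raffinose synthase family, related to enzymes that handle raffinose sugars. It was at 106, 709 and 689 CPM in OX NaCl and 1180.2, 1589 and 945 CPM in OX mock, and at 411, 479 and 841 CPM in Col NaCl and 1874, 2292 and 1103 CPM in Col mock. The salt libraries lay below the mock libraries in both genotypes, and OX NaCl replicate 1 lay far below its fellows. In the overexpressor DIN10 was not called (log2 -1.305, SE 0.587, adjusted p = 0.148). In Col it fell 3.04-fold, at the edge of the threshold (log2 -1.61, SE 0.591, adjusted p = 0.04998). The Col call was lost on leaving out any 1 of 10 libraries (adjusted p 0.0504 to 0.139), the exceptions being Col mock replicate 3 (0.0495) and OX NaCl replicate 1 (0.00408), and it was lost with RLE factors (0.0513), without the filter (0.0679) and with limma (0.0662).

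ASN1 (AT3G47340; chr3:17437840-17441431, minus strand, 7 exons) encodes a glutamine-dependent asparagine synthetase, which stores nitrogen as asparagine in the dark. It was at 2.02, 17.4 and 16.2 CPM in OX NaCl and 4.29, 18.2 and 4.88 CPM in OX mock, and at 18.9, 6.23 and 38.8 CPM in Col NaCl and 9.24, 92.3 and 13.9 CPM in Col mock. Libraries of one group differed several-fold, and the salt and mock groups overlapped in both genotypes. The log2 fold change with NaCl was 0.39 in the overexpressor (approximate 95% interval -2.05 to 2.83, adjusted p = 0.829) and -0.85 in Col (-3.18 to 1.48, adjusted p = 0.527). The Col value was 0.88 without Col mock replicate 2, the library at 92.3 CPM. Its relatives ASN2 and ASN3 had log2 fold changes of -0.45 and -0.15 in the overexpressor, neither called (adjusted p = 0.248 and 0.564), and both fell in Col, ASN2 at -1.20 (adjusted p = 0.00438) and ASN3 at -0.65 (adjusted p = 0.00967). ASN2 was called in the overexpressor without OX NaCl replicate 1 (log2 -0.78, adjusted p = 0.0498).

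BCAT2 (AT1G10070; chr1:3288087-3290471, plus strand, 9 exons) encodes a branched-chain aminotransferase, a relative of the mitochondrial BCAT1 described below. Enzymes of this family catalyse the first step of the leucine route, and whether BCAT2 acts in the mitochondrial route was not tested. BCAT2 was at 3.43, 3.87 and 2.54 CPM in OX NaCl and 10.3, 10.2 and 11.1 CPM in OX mock. It was at 5.32, 9.76 and 7.45 CPM in Col NaCl and 17.3, 26.9 and 12.6 CPM in Col mock. The 4 groups did not overlap, with OX NaCl the lowest, then Col NaCl, OX mock and Col mock. BCAT2 fell 3.21-fold with NaCl in the overexpressor (log2 -1.68, SE 0.307, adjusted p = 0.00594) and 2.51-fold in Col (log2 -1.33, SE 0.285, adjusted p = 0.00396). Both calls held in all 21 alternatives run, of which the recovered reads repeat the main fit.

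DIN4 (AT3G13450; chr3:4382198-4384436, minus strand, 12 exons) encodes the E1 β subunit of the branched-chain keto acid dehydrogenase, the second step. It was at 8.66, 15.1 and 15.4 CPM in OX NaCl and 25.4, 28.1 and 21.4 CPM in OX mock, and at 8.66, 11.5 and 14.2 CPM in Col NaCl and 27.0, 47.8 and 25.3 CPM in Col mock. The NaCl libraries lay below the mock libraries in both genotypes. DIN4 had a log2 fold change of -0.94 in the overexpressor (SE 0.297, adjusted p = 0.0518), and it was called by DESeq2 (0.0178) and limma (0.0378), with upper-quartile (0.0320) or RLE factors (0.0490) and without Col mock replicate 2 (0.0251). It fell 2.91-fold in Col (log2 -1.54, SE 0.297, adjusted p = 0.00227). Its coding sequence is 85.6% identical to that of BCDHB1, the other E1 β gene, so reads could be shared where the counting allowed it. BCDHB1 also fell, at log2 -0.68 in the overexpressor (adjusted p = 0.00906) and -1.39 in Col (adjusted p = 6.76e-05).

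IVD (AT3G45300; chr3:16621452-16625043, minus strand, 15 exons) encodes isovaleryl-CoA dehydrogenase, the third step, which passes electrons to the electron transfer flavoprotein. It was at 31.4, 57.2 and 52.0 CPM in OX NaCl and 100.4, 97.5 and 86.9 CPM in OX mock, and at 51.4, 43.9 and 66.9 CPM in Col NaCl and 117, 135 and 96.8 CPM in Col mock. All salt libraries were below all mock libraries, whichever the genotype. IVD fell 2.03-fold in the overexpressor (log2 -1.02, SE 0.231, adjusted p = 0.0141) and 2.15-fold in Col (log2 -1.11, SE 0.230, adjusted p = 0.00331).

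MCCA (AT1G03090; chr1:739544-744184, plus strand, 16 exons) and MCCB (AT4G34030; chr4:16301027-16304099, plus strand, 10 exons) encode the α and β subunits of methylcrotonyl-CoA carboxylase, the fourth step. MCCA was at 12.6, 21.2 and 29.0 CPM in OX NaCl and 47.4, 48.7 and 47.3 CPM in OX mock, and at 17.8, 19.6 and 27.2 CPM in Col NaCl and 59.0, 90.6 and 70.4 CPM in Col mock. MCCB was at 26.2, 26.3 and 33.1 CPM in OX NaCl and 36.7, 38.6 and 32.1 CPM in OX mock, and at 22.6, 28.9 and 28.9 CPM in Col NaCl and 43.3, 51.1 and 38.7 CPM in Col mock. For MCCA the salt libraries were below the mock libraries in both genotypes, and for MCCB in Col, whereas the MCCB ranges met in the overexpressor. MCCA fell 2.29-fold in the overexpressor (log2 -1.19, SE 0.275, adjusted p = 0.0155) and 3.40-fold in Col (log2 -1.77, SE 0.277, adjusted p = 0.000687). MCCB was not called in the overexpressor (log2 -0.33, adjusted p = 0.159, interval -0.68 to 0.02) and fell 1.65-fold in Col (log2 -0.73, SE 0.152, adjusted p = 0.00341).

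Between genotypes, 1 of the 9 genes differed in salt and 0 in mock by the same test. In NaCl, DIN2 was 37.1-fold lower in the overexpressor, at 0.727 ± 0.453 CPM, than in Col, at 27.4 ± 14.2 CPM (SD, n = 3 each; log2 -5.21, SE 0.639, adjusted p = 0.00733). That is 1 of 9 called lower beside 2.32% of all tested genes, with 0 of 9 called higher beside 2.07%. DIN2 was called in all 21 alternatives, of which the recovered reads repeat the main fit, with adjusted p at most 0.0489. The count over all genes was less stable. It was 829 with all libraries, 13 with only the NaCl libraries fitted, and 45, 60, 77, 347, 385 and 417 on leaving out Col NaCl replicate 3, Col NaCl replicate 2, OX NaCl replicate 3, OX NaCl replicate 2, OX mock replicate 3 and OX mock replicate 1 in turn. The largest counts were 2344 with the replicate block, 1799 by DESeq2 and 1017 without Col NaCl replicate 1.

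BCAT2 averaged 3.28 ± 0.677 CPM in OX NaCl and 7.51 ± 2.22 CPM in Col NaCl (SD, n = 3 each), and every OX NaCl library was below every Col NaCl library. The difference stood just outside the threshold without a replicate block (log2 -1.20, SE 0.305, adjusted p = 0.0519) and was called with it (0.0202). It was called in 5 of 21 alternatives. The others were DESeq2 (0.00811) and fits without Col mock replicate 2 (0.0291), Col mock replicate 3 (0.0450) or Col NaCl replicate 1 (0.0343). Ranges that lay wholly lower in the overexpressor were seen for DIN2 and BCAT2, 2 of 9 beside 12.4% of all tested genes. For the other 7 genes the log2 difference in NaCl ran from -1.296 (SEN1, interval -3.18 to 0.59) to 0.19 (DIN4, interval -0.50 to 0.87), and their ranges overlapped.

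In mock leaves, all 9 genes had a log2 difference below 0 between the overexpressor and Col, from -2.09 (ASN1) to -0.29 (IVD), with a median of -0.61 against -0.02 over all tested genes. By edgeR 0 of 9 were called, beside 0.0371% of all tested genes called lower and 0.0635% called higher, and DESeq2 and limma also called 0. At an unadjusted p under 0.05 there were 2, BCAT2 (log2 -0.84, edgeR adjusted p = 0.481) and MCCA (log2 -0.62, edgeR adjusted p = 0.659). The ranges of BCAT2, MCCA and MCCB lay wholly lower in OX mock, 3 of 9 beside 7.46% of all tested genes, and 0 lay wholly higher, beside 8.26%. Col mock replicate 2 had the highest level of its group for 9 of 9 members, and without it the median was -0.27. OX mock replicate 2 was the highest of its group for 6 of 9. With the replicate block and all 12 libraries the median was -0.55, and 0 of 9 were called. The lower depth of the overexpressor libraries goes with genotype, and its part in these differences was not tested.

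The response to NaCl was compared between genotypes by the interaction term, which called 0 of the 9 genes (0% of all tested genes were called). DIN2 had the largest value, a log2 response -4.60 in the overexpressor relative to Col (SE 1.01, interval -6.92 to -2.28, edgeR adjusted p = 0.1003). DESeq2 called it (log2 -4.62, adjusted p = 0.000237), as did limma on the deposited signal (-3.68, adjusted p = 0.0375), where 3.49% and 0.339% of all tested genes were called. Over the 20 alternatives its adjusted p ran from 0.000237 to 0.252. For the other 8 genes the term ran from -0.35 (BCAT2) to 1.24 (ASN1) (edgeR adjusted p = 0.459 or more). SEN1 was close to 0 (0.02), but with an interval of -2.68 to 2.71 that leaves room for a several-fold difference either way.

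Beyond the members, a list of 18 other genes of branched-chain amino acid breakdown and linked steps was tested, and most of those called were lower with NaCl. The list holds LKR, an enzyme of lysine breakdown, MGL, a methionine γ-lyase, and D2HGDH, which feeds electrons to the same flavoprotein as IVD, none of which was called with NaCl in either genotype. With NaCl in the overexpressor 7 of 18 fell and 0 rose, beside 8.55% of all tested genes called lower, with a list median of -0.31. Of those 7, DIN3, the E2 subunit gene of the keto acid dehydrogenase, lost its call without OX mock replicate 1 (adjusted p = 0.0567) or OX NaCl replicate 2 (0.0614). CHY1, a hydroxyisobutyryl-CoA hydrolase of valine breakdown, lost it with only the overexpressor libraries fitted (0.0785) and without OX mock replicate 1 (0.0648) or 2 (0.0719) or OX NaCl replicate 2 (0.0812). In Col 8 of 18 fell and 2 rose, beside 21.1% lower and 20.3% higher, with a list median of -0.35. BCDHA1, an E1 α subunit, fell by 0.92 on the log2 scale in the overexpressor (adjusted p = 0.00834) and by 0.80 in Col (adjusted p = 0.00567). ALDH6B2, a methylmalonate-semialdehyde dehydrogenase of valine breakdown, was at 43.5, 62.4 and 53.2 CPM in OX NaCl against 91.4, 112 and 81.6 CPM in OX mock, and at 49.1, 53.9 and 53.3 CPM in Col NaCl against 124, 159 and 98.4 CPM in Col mock. It fell 1.79-fold in the overexpressor (adjusted p = 0.0153) and 2.44-fold in Col (adjusted p = 0.000556). ETFQO, which passes electrons from IVD and similar enzymes to ubiquinone, fell 1.73-fold in the overexpressor (adjusted p = 0.00663). In Col, ETFQO averaged 17.1 CPM with NaCl and 38.8 CPM in mock, and DIN3 averaged 14.2 and 30.9 CPM. For both, every Col NaCl library lay below every Col mock library. BCAT1, a mitochondrial aminotransferase, was not called in the overexpressor (log2 -0.54, adjusted p = 0.353) and fell 2.86-fold in Col (adjusted p = 0.0101).

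The 2 genes of that set that rose with NaCl in Col were mtLPD2, a lipoamide dehydrogenase shared with other mitochondrial complexes, and ETFBETA, a subunit of the electron transfer flavoprotein. The gene mtLPD2 averaged 236 ± 25.8 CPM in Col NaCl and 105 ± 24.6 CPM in Col mock (SD, n = 3 each; log2 1.17, adjusted p = 0.000644), and ETFBETA changed by 0.48 (adjusted p = 0.00664). The paired gene mtLPD1 fell in both genotypes, by 0.58 on the log2 scale in the overexpressor (adjusted p = 0.00773) and by 1.09 in Col (adjusted p = 8.57e-05). Between genotypes 0 of 18 were called in NaCl, beside 4.39% of all tested genes, and 0 in mock, beside 0.101%.

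**Figure D3:**
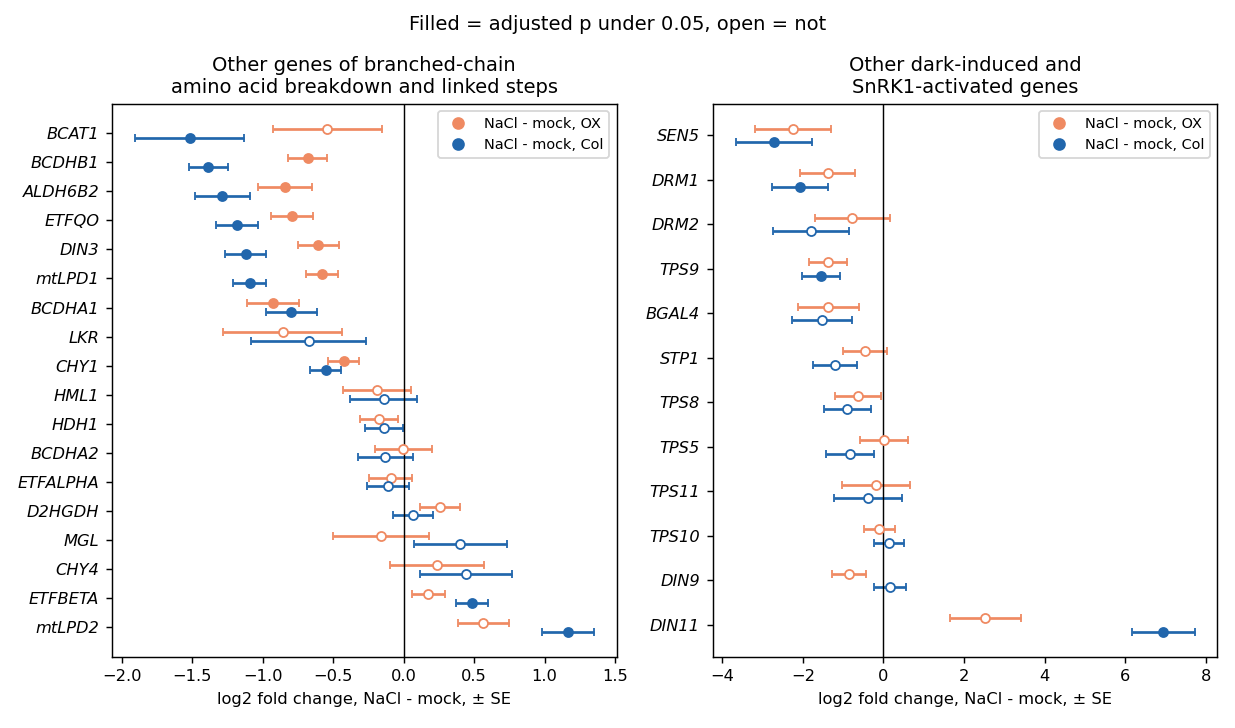
Log2 fold change ± SE (edgeR) for NaCl against mock in the overexpressor and in Col, for 18 other genes of branched-chain amino acid breakdown and linked steps on the left and 12 other genes taken as dark-induced or SnRK1-activated on the right. Filled points had an adjusted p under 0.05; DIN11 stands apart at 6.94 in Col and 2.53 in the overexpressor.

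Another list held 12 other genes, taken as dark-induced or as activated by the SnRK1 kinase KIN10. Within Col mock, replicate 2 was the lowest for TPS5 and DIN9 and the highest for all others of the list. Whether TPS5 and DIN9 belong in it was not tested. Of the 12, 0 were called with NaCl in the overexpressor, beside 18.3% of all tested genes. In Col 1 rose and 3 fell, 4 of 12 in all beside 41.4%, with a list median of -1.05. The 1 that rose was DIN11, an oxygenase of the 2-oxoglutarate-dependent family. It was at 1.57, 2.02 and 4.18 CPM in OX NaCl and 0.689, 0.293 and 0.315 CPM in OX mock, and at 36.2, 143 and 100.3 CPM in Col NaCl and 0.264, 1.74 and 0.248 CPM in Col mock. The Col NaCl libraries stood above all others, as for DIN2, and the OX NaCl libraries lay above OX mock. DIN11 rose 123-fold in Col (log2 6.94, SE 0.771, adjusted p = 0.000118) and was not called in the overexpressor (log2 2.53, adjusted p = 0.0720). In NaCl it was 35.9-fold lower in the overexpressor than in Col (log2 -5.17, SE 0.689, adjusted p = 0.00879, or 0.0532 with only the NaCl libraries fitted), and its interaction term was -4.42 (adjusted p = 0.178).

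The 3 that fell in Col were SEN5, DRM1 and TPS9. SEN5, annotated as an aluminium-induced protein, was at 29.9, 169 and 117 CPM in Col NaCl and 643, 1004 and 421 CPM in Col mock (log2 -2.71, adjusted p = 0.0413). Its call was lost without the filter (0.0568) and on leaving out any 1 library (0.0523 to 0.110) other than OX mock replicate 2, OX NaCl replicate 1 or OX NaCl replicate 2. DRM1, a dormancy-associated gene, changed by -2.06 (adjusted p = 0.0349), which was lost without Col mock replicate 1 (0.0696) or 2 (0.0866) or Col NaCl replicate 1 (0.107) or 2 (0.0948). TPS9, a class II trehalose phosphate synthase gene, changed by -1.55 (adjusted p = 0.0213), which was lost without Col mock replicate 2 (0.0622) or Col NaCl replicate 1 (0.0706). In the overexpressor the values were -2.24, -1.38 and -1.38 (adjusted p = 0.121, 0.185 and 0.0673).

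Of the 6 genes for SnRK1 subunits, 2 fell with NaCl in the overexpressor beside 8.55% of all tested genes, and 3 fell in Col beside 21.1%, with 0 higher in either. KIN10, a catalytic subunit, averaged 44.4 ± 1.71 CPM in OX NaCl and 57.7 ± 1.92 CPM in OX mock, and 42.6 ± 2.81 CPM in Col NaCl and 61.1 ± 1.98 CPM in Col mock (SD, n = 3 each). Its fall was 1.299-fold in the overexpressor (adjusted p = 0.0177) and 1.43-fold in Col (adjusted p = 0.00120). The overexpressor call of KIN10 was lost with only those libraries fitted (0.0729) and without OX mock replicate 1 (0.0529) or 3 (0.0704) or OX NaCl replicate 2 (0.0582). KINBETA1, a regulatory subunit, fell 2.50-fold in Col (adjusted p = 0.0208), which was lost without Col mock replicate 2 (0.0629) or Col NaCl replicate 1 (0.0685) or 2 (0.0564). KIN11, the other catalytic subunit, fell 1.33-fold in the overexpressor (adjusted p = 0.0174) and 1.299-fold in Col (adjusted p = 0.0106). With only the groups compared fitted its adjusted p was 0.0615 in the overexpressor and 0.0521 in Col, and the overexpressor call was also lost without OX mock replicate 1 (0.0545) or 2 (0.0515).

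Of 9 bZIP factors of groups C and S1, 4 could be tested, and 1 fell with NaCl in the overexpressor, beside 8.55% of all tested genes, and 2 in Col, beside 21.1%. The group C factor bZIP10 fell 1.41-fold in the overexpressor (adjusted p = 0.0443) and 1.60-fold in Col (adjusted p = 0.00513). The overexpressor call of bZIP10 was kept on leaving out Col mock replicate 2 or 3 or OX mock replicate 2, and lost on leaving out any other library (0.0567 to 0.164), without the filter (0.0531) and with only those libraries fitted (0.0838). The related bZIP9 fell 1.57-fold in Col (adjusted p = 0.0418), which was lost on leaving out Col mock replicate 1 or 3, Col NaCl replicate 1 or 2, OX mock replicate 1 or OX NaCl replicate 2 (0.0538 to 0.127). The partner bZIP63, known to be phosphorylated by SnRK1, was not called (-1.31 in the overexpressor, adjusted p = 0.119; -1.36 in Col, adjusted p = 0.0646). The other 5, the group S1 genes bZIP1, bZIP2, bZIP11, bZIP44 and bZIP53, were listed at 0 in all 12 libraries. All 62 entries named CPuORF, for conserved upstream reading frames, were also at 0, beside 26.1% of all named genes. Whether the counting dropped reads of such loci was not tested, so no level is given for the 5 group S1 genes.

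Of 3 tested relatives of DIN10, 1 fell with NaCl in the overexpressor, beside 8.55% of all tested genes, and in Col 1 fell and 1 rose, beside 21.1% lower and 20.3% higher. Of 3 tested relatives of SEN1, 1 fell in each genotype, beside the same shares. RS2, a raffinose synthase-family gene, was at 98.3, 209.7 and 261 CPM in OX NaCl and 1227, 1129 and 833 CPM in OX mock, and at 263, 311 and 389 CPM in Col NaCl and 1802, 1714 and 1058 CPM in Col mock, with the salt libraries below the mock libraries. RS2 fell 5.61-fold in the overexpressor (adjusted p = 0.00194) and 4.75-fold in Col (adjusted p = 0.000648). RS5, a raffinose synthase, was not called in the overexpressor (log2 0.33, adjusted p = 0.214) and rose by 0.49 in Col (adjusted p = 0.0453). The Col call of RS5 was lost with upper-quartile factors (0.0820), with only the Col libraries fitted (0.0668) and on leaving out any 1 library (0.0521 to 0.162) other than Col mock replicate 2, Col NaCl replicate 3, OX mock replicate 1 or OX mock replicate 3. STR14, a rhodanese-family gene, was the relative of SEN1 that fell, at -0.58 in the overexpressor (adjusted p = 0.0323) and -1.25 in Col (adjusted p = 0.000250). The overexpressor call of STR14 was lost with only those libraries fitted (0.0615) and without OX mock replicate 2 (0.0954) or 3 (0.0816) or OX NaCl replicate 1 (0.0785) or 2 (0.0983).

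Likeness of pattern was measured over the 12 libraries as the root mean square difference of centred log2(CPM + 0.5), where 0 is the same pattern. Within the 9 genes the closest pairs were DIN4 with IVD (0.24), DIN4 with MCCA (0.26) and MCCA with IVD (0.30), and the farthest was SEN1 with DIN2 (3.24). Over all tested genes, SEN1 was nearest to AT1G15125 (0.58), SEN5 (0.62) and AT5G22920 (0.68). DIN10 was nearest to DRM1 (0.26), AT1G23052 (0.32) and TPS9 (0.35). DIN2 was nearest to GLIP1 (0.70), BGLU45 (0.73) and AT3G25490 (0.74), and ASN1 to AT5G56980 (0.73), AT1G75230 (0.75) and AT4G29700 (0.77), so neither had a gene as close as those of DIN10. The libraries share their depth and leaf source, and the values describe these libraries only.

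Among the leucine enzymes and their relatives, BCAT2 was nearest to AT4G24350 (0.31), THA1 (0.33) and PDF1.2b (0.34), and DIN4 to CM3 (0.19), LOL1 (0.20) and AT2G34530 (0.20). IVD was nearest to GRF6 (0.14), AT3G54880 (0.15) and UGE1 (0.16). MCCA was nearest to AT1G67870 (0.17), PP2-A14 (0.23) and AT1G64370 (0.24), and MCCB to AT4G14870 (0.11), GRF9 (0.12) and AT2G45810 (0.12). A gene that varies little, as MCCB does (SD 0.32 on that scale, against 2.23 for SEN1), is near to many genes by this measure.

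Overlap with other genes touches 5 of the 9. The libraries were strand-specific, but the strand setting of the counting is not given in the sources used here. On the opposite strand, BCAT2 overlaps AT1G10090, which changed with NaCl by -0.28 in the overexpressor (adjusted p = 0.325) and by -0.84 in Col (adjusted p = 0.00540). DIN4 overlaps AT3G13445, which fell by 0.56 on the log2 scale in the overexpressor (adjusted p = 0.0190) and by 0.58 in Col (adjusted p = 0.00595). The partners of ASN1 and DIN10, AT3G47341 and AT5G20260, had 0 counts. MCCA overlaps AT1G03100, at 2.49 to 3.31 CPM in the group means, and AT1G04157, which was not analysed here. SEN1, DIN2, MCCB and IVD overlap no annotated gene.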

How the data were processed

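Messenger RNA of 12 leaf libraries was poly(A)-selected and made into strand-specific libraries, per the labels' protocols. TopHat, Cufflinks and TAIR10 are named, with no versions, per the submitters' processing notes. The deposited values are whole-number counts per gene, not normalised, and a TMM-normalised signal by the authors that equals the count over 1 constant per library (whole reads were recovered for 100% of values, tolerance 0.001). Entries without a gene name (7, holding 0.382% to 0.897% of counts) were left out.

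Counts were fitted in R 4.3.3 with edgeR 4.0.16 (TMM factors, filter by group, robust quasi-likelihood F test, 1 model of 4 groups, 8 residual degrees of freedom, biological coefficient of variation 0.249). P-values were adjusted over 18886 genes, and an adjusted p under 0.05 was a call. Levels are CPM, counts scaled to the TMM-adjusted library total. The SE is the size of the log2 fold change divided by √F. Intervals use the t distribution and are approximate. The scripts were tested on counts simulated with 100 genes changed 2-fold and 100 changed 4-fold in Col NaCl. For NaCl against mock in Col, 37% of the 2-fold and 76% of the 4-fold changes were called in the right direction. In that setting most 2-fold changes were missed. Far fewer genes changed there than the 7814 called with NaCl in Col, which makes the adjustment stricter. The shares recovered therefore do not measure recovery in the real comparison.

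Alternatives were DESeq2 1.42.0, limma 3.58.1 on log2(signal + 1), other scaling factors, no filter, no robust step, only the groups compared, a replicate block, each library left out, and the recovered reads (added after seeing the data). The recovered reads equalled the counts, so that alternative repeats the main fit. Replicate numbers were taken to pair libraries in both NaCl comparisons and between genotypes in mock, where every same-numbered pair of deviations from group means correlated above 0.1. Between genotypes in NaCl the same-numbered pairs correlated at 0.41, -0.013 and 0.56 for replicates 1, 2 and 3. Pairing in the other comparisons would imply pairing here too. The labels do not settle it, so values with and without the block are given where the block changed the call of a member. Replicates are independent biological ones per the labels.

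The members and gene lists were chosen with earlier results of these data known. Named are the 9 members and ERF34, up to 3 called genes of each list and comparison with the largest change at 1 CPM or more, close relatives, and the 3 genes nearest to each member. The genes mtLPD1, DIN3, CHY1, LKR, MGL, D2HGDH and bZIP63 are named outside that rule and were chosen after their values were seen.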

Additional observations from a re-analysis of the deposited data

How the results depend on the processing

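Depth limits DIN2, which had 3 to 15 counts in the overexpressor libraries, whereas every other member stood over 1 CPM in every library except SEN1 in OX NaCl replicate 1. All genes called with NaCl in the overexpressor numbered 5327 with the replicate block and 2227 with only the groups compared, against 3449. Between genotypes in mock, 200 were called by DESeq2, 29 by limma and 4 with only the groups compared, against 19. Between genotypes in NaCl, 1799 were called by DESeq2, 2344 with the replicate block and 13 with only the groups compared, against 829. The interaction called 659 by DESeq2, 5 with RLE factors, 8 without the filter, 379 with the replicate block and 64 by limma, against 0. Of the 9 members, 2 were called between genotypes in NaCl by DESeq2 and 2 with the replicate block (BCAT2 added, adjusted p = 0.0202), against 1, and 1 in the interaction by DESeq2 and 1 by limma, against 0. Beside DIN4 with NaCl in the overexpressor and BCAT2 between genotypes in NaCl, the block changed no other call of a member.

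Leaving out 1 library gave 5921 to 8443 genes for NaCl in Col, 1519 to 3627 for NaCl in the overexpressor, 3 to 18 and 45 to 1017 between genotypes in mock and in NaCl, and 0 to 73 for the interaction. The members called were 7 to 8, 3 to 5, 0, 1 to 2 and 0 for the same comparisons.

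Log2 values that changed sign were all of genes not called, and the cause was not tested. MCCA between genotypes in NaCl was 0.0076 with upper-quartile factors. In the interaction SEN1 was -0.013 by DESeq2, -0.019 with RLE factors, -0.35 with the replicate block and -0.49 by limma, and DIN10 -0.12 by limma. With 1 library left out, NaCl gave ASN1 -1.62 to 0.88 in Col and DIN2 -0.44 to 0.49 in the overexpressor. Between genotypes, ASN2 ran from -0.18 to 0.084 in mock, and in NaCl DIN10 from -0.54 to 0.28, MCCA from -0.35 to 0.22, MCCB from -0.030 to 0.15 and IVD from -0.38 to 0.014. In the interaction SEN1 ran from -0.86 to 0.57, ASN1 from -0.49 to 2.22, DIN10 from -0.035 to 0.78 and IVD from -0.081 to 0.31.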

Other observations

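The ratio of MCCA to MCCB, the 2 subunit genes of methylcrotonyl-CoA carboxylase, both in CPM per kb of exon, was 0.575 ± 0.168 in OX NaCl and 1.07 ± 0.0915 in OX mock, and 0.639 ± 0.104 in Col NaCl and 1.32 ± 0.201 in Col mock (SD, n = 3 each). Every NaCl library was below every mock library of its genotype, with an exact two-sided permutation p of 0.1 in both genotypes, the smallest that 3 against 3 allows. Between genotypes the exact permutation p was 0.7 in NaCl and 0.2 in mock. The permutations treated the libraries as unpaired, and the ratio was not among the comparisons planned.

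Within groups, the members often ranked the libraries alike. OX NaCl replicate 1 had the lowest level of its group for 7 of 9 members, against 45.1% of all tested genes, and OX mock replicate 2 the highest for 6 of 9, against 39.2%. Col NaCl replicate 1 was the lowest for 7 of 9, against 34.4%, and Col mock replicate 2 the highest for 9 of 9, against 37.9%.

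PI, a petal identity gene in the flower marker list, was called higher with NaCl in the overexpressor (log2 4.70, adjusted p = 0.0406, edgeR), at 0, 2.73 and 2.38 CPM in OX NaCl and 0, 0.195 and 0 CPM in OX mock, and the ranges overlapped.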
